A study of Arabidopsis thaliana with 12 samples.

Results

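The 4 Col-0 libraries of a leaf RNA-seq series of Arabidopsis thaliana were compared with each other, libraries 1 and 2 against libraries 3 and 4. Col-0 is the reference accession, an inbred line. All 4 libraries carry the same labels for genotype, tissue and age and differ only in the replicate number by which they were paired. They are 4 of the 12 libraries in the series. The other 8 are 2 each of the inbred accessions Per-1 and Aa-0, of the cross Col-0×Per-1 and of the cross Col-0×Aa-0. Every library came from first leaves of plants kept for 14 days on Murashige and Skoog medium with 1% sucrose, with no further treatment named. The labels do not say whether replicates were separate plants, plates or harvests, so a p-value speaks of no more than the spread among the libraries, part or all of which may be technical. What set the pairs apart was not tested.

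The plant clock is a circuit of transcription factors that repress or activate one another in sequence through the day. CCA1 and LHY peak around dawn and repress genes of the evening through a promoter sequence called the evening element, while the PRR proteins and the evening complex repress CCA1 and LHY in turn. In leaves the clock times the expression of light signalling, starch breakdown, cold-response and flowering genes.

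Values were FPKM, read fragments divided by gene length and by the size of the library, and 16523 of the 34133 identifiers had at least 1 FPKM in at least 2 of the 4 Col-0 libraries. Absolute depth is unknown. Low FPKM values put the depth of libraries 2, 3 and 4 at 1.08 to 1.11 times that of library 1. Over the tested genes the mean absolute difference of log2(FPKM + 1) was 0.18 between libraries 1 and 2 and 0.22 between libraries 3 and 4, while the 4 pairings across gave 0.35 to 0.40. The duplicates of the other genotypes differed by 0.19 to 0.29. Distances from libraries 3 and 4 were 0.276 to 0.371 to the Col-0×Aa-0 libraries and 0.421 to 0.555 to the Col-0×Per-1 libraries. From libraries 1 and 2 they were 0.315 to 0.386 and 0.336 to 0.439. The gap between the Col-0 pairs thus exceeded some distances to a cross, while all 4 Col-0 libraries lay 0.369 to 0.525 from Aa-0 and Per-1. Leaf identity held in all 4 libraries: of 7 shoot meristem markers, WUS, CLV3 and STM were listed at 0 in each of the 4 libraries and the sum was at most 0.19 FPKM, and the 7 root markers summed to 1.07 and 2.15 FPKM in libraries 1 and 2 and to 3.05 and 2.22 FPKM in libraries 3 and 4. Genes encoded in the plastid took 3.10% and 3.27% of all FPKM in libraries 1 and 2, against 1.93% and 3.09% in libraries 3 and 4.

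RBCS1A, which encodes a small subunit of the carbon-fixing enzyme Rubisco, was listed at 0 in libraries 1 and 2, against 19509 and 19500 FPKM in libraries 3 and 4 and 16409 to 25067 FPKM in the other 8 libraries. No other gene was listed at 0 in both libraries of a pair and at 10 FPKM or more in both of the other. The related copies RBCS1B and RBCS3B had 1319 and 1229 FPKM and 10444 and 10427 FPKM in libraries 1 and 2, against 1137 and 1268 FPKM and 8599 and 8781 FPKM in libraries 3 and 4. RBCS2B, another copy, was called higher in libraries 1 and 2, with log2(FPKM + 1) differences of 0.66 to 1.04 when single libraries were left out. A listing at 0 in an FPKM file can be a failed estimate, so no fold change is given for RBCS1A and it is left out of the photosynthesis counts below.

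Of the 16523 genes tested, 2569 (15.5%) differed between the pairs at an adjusted p under 0.05 in limma's moderated test. Of these, 1193 (7.22%) were higher in libraries 1 and 2 and 1376 (8.33%) were lower. These shares are the background for the list counts below. The median difference over all tested genes was -0.04 on the log2(FPKM + 1) scale, and every difference below is on that scale, libraries 1 and 2 minus libraries 3 and 4. Requiring an absolute difference of at least 1 left 435 genes higher (2.63%) and 388 lower (2.35%). Fewer genes were called when any 1 library was left out. Such a fit sets 1 library against 2, which enlarges the SE whichever library is left out. A call that ended in an omission, as given below, therefore need not mean that the difference rested on that library. Differences over the 4 omissions stayed at 0.5 to 0.59 for AT4G01280, for example, but ran from 0.56 to 1.47 for NIA2. The values of the pairs did not overlap for any of the 2569 called genes, nor for 61.9% of all tested genes. The library kit does not mark strand, so reads of genes that overlap another gene cannot be told apart from those of that gene. Among the genes described below this holds for RVE1, ASG4, AT4G01280, the LNK genes, ELF3, LUX, BOA, FKF1, LKP2, COL2, BBX24, SPA4, PHOT2, PIF7, LHCB2.3, RCA, GUN4, CAO, PORB, CHLM, CHS, F3H, SBE2.1, PHS2, SS2, BAM9, DIN6, DIN10, APL1, COR15B, CBF3, GOLS1, P5CS1, DREB2A, WRKY40 and AT5G23240. The pairs were proposed with earlier results of these libraries known, so the p-values are no independent evidence that the pairs differ, and an exact permutation test of 2 against 2 libraries cannot give a two-sided p below 0.333.

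Promoters of the changed genes held the evening element at unequal rates. The 300 bases before the annotated gene start were read from the TAIR10.1 assembly for 16348 tested genes. The evening element, AAAATATCT on either strand, was present in 16.7% of the 384 promoters of genes lower by at least 1 in libraries 1 and 2, in 1.15% of the 434 promoters of genes higher by at least 1, and in 3.08% of all tested promoters. The G-box, CACGTG, which reads the same on both strands and is bound by light-signalling factors such as the PIFs and HY5, was in 11.2% of the lower set, 20.5% of the higher set and 8.22% of all. The CCA1 binding site AAAAATCT was in 10.9% of the lower set, 7.83% of the higher set and 8.19% of all, and the I-box GATAAG in 17.4%, 15% and 14.8%. The telo box AAACCCTA was in 4.17% of the lower set, 1.15% of the higher set and 4.34% of all. None of the 5 motifs contains another, and a match describes letters in the window, not a bound site.

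Shown first are G-box promoters of clock genes that were higher in libraries 1 and 2, with the G-box in capitals, the CCA1 window whole and the others with 25 bases around the match. They are CCA1 (chr2:19245291-19245590, plus strand), LHY (chr1:37921-37976, minus strand), RVE1 (chr5:5693073-5693128, minus strand), PRR9 (chr2:19232338-19232465, plus strand) and LNK3 (chr3:3923319-3923404, plus strand), all in TAIR10.1 and written 5′ to 3′ on the strand of the gene.
CCA1: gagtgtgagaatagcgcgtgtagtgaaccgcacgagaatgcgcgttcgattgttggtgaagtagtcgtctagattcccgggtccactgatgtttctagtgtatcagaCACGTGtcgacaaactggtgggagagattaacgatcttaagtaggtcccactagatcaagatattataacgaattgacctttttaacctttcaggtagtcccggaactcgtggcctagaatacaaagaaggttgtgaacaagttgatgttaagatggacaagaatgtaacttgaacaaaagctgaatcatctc
LHY: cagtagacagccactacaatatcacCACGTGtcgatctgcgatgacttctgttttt
RVE1: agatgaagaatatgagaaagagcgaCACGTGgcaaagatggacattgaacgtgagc
PRR9: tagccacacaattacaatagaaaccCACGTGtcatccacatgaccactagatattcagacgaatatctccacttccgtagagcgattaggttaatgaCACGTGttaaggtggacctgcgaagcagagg
LNK3: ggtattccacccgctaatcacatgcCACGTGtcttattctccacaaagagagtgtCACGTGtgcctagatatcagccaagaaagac
The G-box began 193 bases before the annotated start in CCA1, 80 in LHY and 111 in RVE1, and PRR9 and LNK3 each held 2. Of the 12 morning clock genes called higher, 7 held a G-box in the window and 0 held an evening element. RVE2, the morning gene called lower, and PRR7, which was not called, each held a G-box too.

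Shown next are evening-element promoters of genes that were lower in libraries 1 and 2, with the element in capitals on whichever strand it lies and the TOC1 window whole. They are TOC1 (chr5:24674663-24674962, plus strand), PRR5 (chr5:8358700-8358846, minus strand), LUX (chr3:17182964-17183022, plus strand), BOA (chr5:24003820-24003878, plus strand), FKF1 (chr1:25508428-25508486, plus strand), COR27 (chr5:17199911-17199974, minus strand) and GRP7 (chr2:9266558-9266658, minus strand).
TOC1: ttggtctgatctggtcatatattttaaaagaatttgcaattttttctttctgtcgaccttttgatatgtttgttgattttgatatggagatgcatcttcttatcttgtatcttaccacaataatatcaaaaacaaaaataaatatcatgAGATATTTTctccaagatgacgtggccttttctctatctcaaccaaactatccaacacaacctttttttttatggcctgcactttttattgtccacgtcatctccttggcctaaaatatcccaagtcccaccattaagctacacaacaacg
PRR5: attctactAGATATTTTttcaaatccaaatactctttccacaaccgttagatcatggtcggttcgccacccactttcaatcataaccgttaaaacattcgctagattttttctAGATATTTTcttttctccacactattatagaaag
LUX: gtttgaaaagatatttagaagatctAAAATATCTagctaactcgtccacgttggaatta
BOA: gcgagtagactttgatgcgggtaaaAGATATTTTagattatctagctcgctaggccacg
FKF1: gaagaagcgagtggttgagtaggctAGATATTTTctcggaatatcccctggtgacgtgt
COR27: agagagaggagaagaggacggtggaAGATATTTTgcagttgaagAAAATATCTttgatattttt
GRP7: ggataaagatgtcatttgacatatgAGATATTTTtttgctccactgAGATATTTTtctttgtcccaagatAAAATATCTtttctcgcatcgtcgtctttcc
GRP7 held 3 copies, the nearest beginning 31 bases before the annotated start, and COR27 held 2, at 39 and 20 bases. Of the 11 afternoon and evening clock genes called lower, 5 held the element in this window and 2, LUX and BOA, held a G-box. COL2, a clock output called higher, held an evening element.

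Morning clock genes were higher in libraries 1 and 2. Of 16 tested, 12 passed the test upwards and 1, RVE2, downwards, and the median difference was 1.96, against -0.04 over all tested genes. The values of the pairs did not overlap for any of the 16, which compares with 61.9% of all tested genes. Of the list, 11 were called higher in each of the 4 omissions of a single library.

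LHY, a MYB factor of the dawn loop, had 50.6 and 51.5 FPKM in libraries 1 and 2, against 1.57 and 1.85 FPKM in libraries 3 and 4, the largest rise of any gene that met the naming rule (4.26 ± 0.12 SE, adjusted p 2.8e-07). Its partner CCA1 had 106 and 116 FPKM in libraries 1 and 2, against 8.58 and 9.01 FPKM in libraries 3 and 4 (3.52 ± 0.13, adjusted p 8.42e-07). In the other 8 libraries LHY ran from 4.39 to 10.2 FPKM and CCA1 from 17.4 to 44.8 FPKM. Both genes were high in libraries 1 and 2 and low in libraries 3 and 4. Neither Col-0 pair reached into that range for either gene: libraries 1 and 2 lay above it and libraries 3 and 4 below it.

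The REVEILLE genes encode relatives of CCA1 and LHY, some of which activate evening genes. RVE8, one of the activators, had 20.4 and 24.7 FPKM in libraries 1 and 2, against 1.62 and 1.71 FPKM in libraries 3 and 4 (3.14 ± 0.18, adjusted p 1.32e-05). RVE1, which links the clock to auxin, had 25.2 and 27.0 FPKM in libraries 1 and 2, against 0.76 and 0.88 FPKM in libraries 3 and 4 (3.90 ± 0.37, adjusted p 0.000138). RVE4, another activator, changed less, with 80.9 and 90.1 FPKM in libraries 1 and 2 and 41.8 and 39.0 FPKM in libraries 3 and 4 (1.06 ± 0.16, adjusted p 0.00176). ASG4 had 6.14 and 6.94 FPKM in libraries 1 and 2, against 0.15 and 0.34 FPKM in libraries 3 and 4 (2.60 ± 0.16, adjusted p 1.69e-05).

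The family did not move as a whole. AT4G01280 was higher by 0.55 ± 0.14 (adjusted p 0.0262), a call that ended without any of the 4 libraries, at adjusted p 0.0855 to 0.135. RVE2 was lower, at 1.74 and 1.18 FPKM in libraries 1 and 2, against 4.11 and 2.92 FPKM in libraries 3 and 4 (-0.87 ± 0.23, adjusted p 0.0316), and the call ended without library 1 (0.0584), library 2 (0.204) or library 3 (0.175). RVE7 and AT5G52660 did not pass, with differences of 0.28 ± 0.31 and 0.25 ± 0.16.

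The LNK genes encode co-activators that the RVE proteins recruit, and all 4 rose. LNK3 had 66.2 and 90.8 FPKM in libraries 1 and 2, against 9.91 and 10.04 FPKM in libraries 3 and 4 (2.84 ± 0.15, adjusted p 9.14e-06). LNK4 differed by 2.77 ± 0.16, LNK2 by 2.28 ± 0.19 and LNK1 by 1.07 ± 0.16, with adjusted p of 1.32e-05, 6.07e-05 and 0.00219. All 4 overlap another annotated gene.

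The PRR repressors are expressed one after another from morning to evening, and the difference was positive for the earliest and negative for the later members that passed. PRR9, the earliest, had 28.6 and 33.8 FPKM in libraries 1 and 2, against 8.69 and 9.85 FPKM in libraries 3 and 4 (1.65 ± 0.21, adjusted p 0.000851). PRR7, the next, had 74.0 and 75.6 FPKM in libraries 1 and 2, against 91.9 and 94.4 FPKM in libraries 3 and 4, and did not pass (-0.31 ± 0.10, adjusted p 0.0624). PRR5, of the afternoon, had 9.61 and 5.72 FPKM in libraries 1 and 2, against 67.8 and 69.4 FPKM in libraries 3 and 4 (-3.04 ± 0.33, adjusted p 0.000324). The differences of PRR3 (-3.34 ± 0.20) and of the evening member TOC1, also called PRR1 (-2.59 ± 0.25), had the same sign as that of PRR5, with adjusted p of 1.54e-05 and 0.000159. TOC1 had 9.15 and 5.95 FPKM in libraries 1 and 2, against 58.5 and 41.8 FPKM in libraries 3 and 4.

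**Figure D1:**
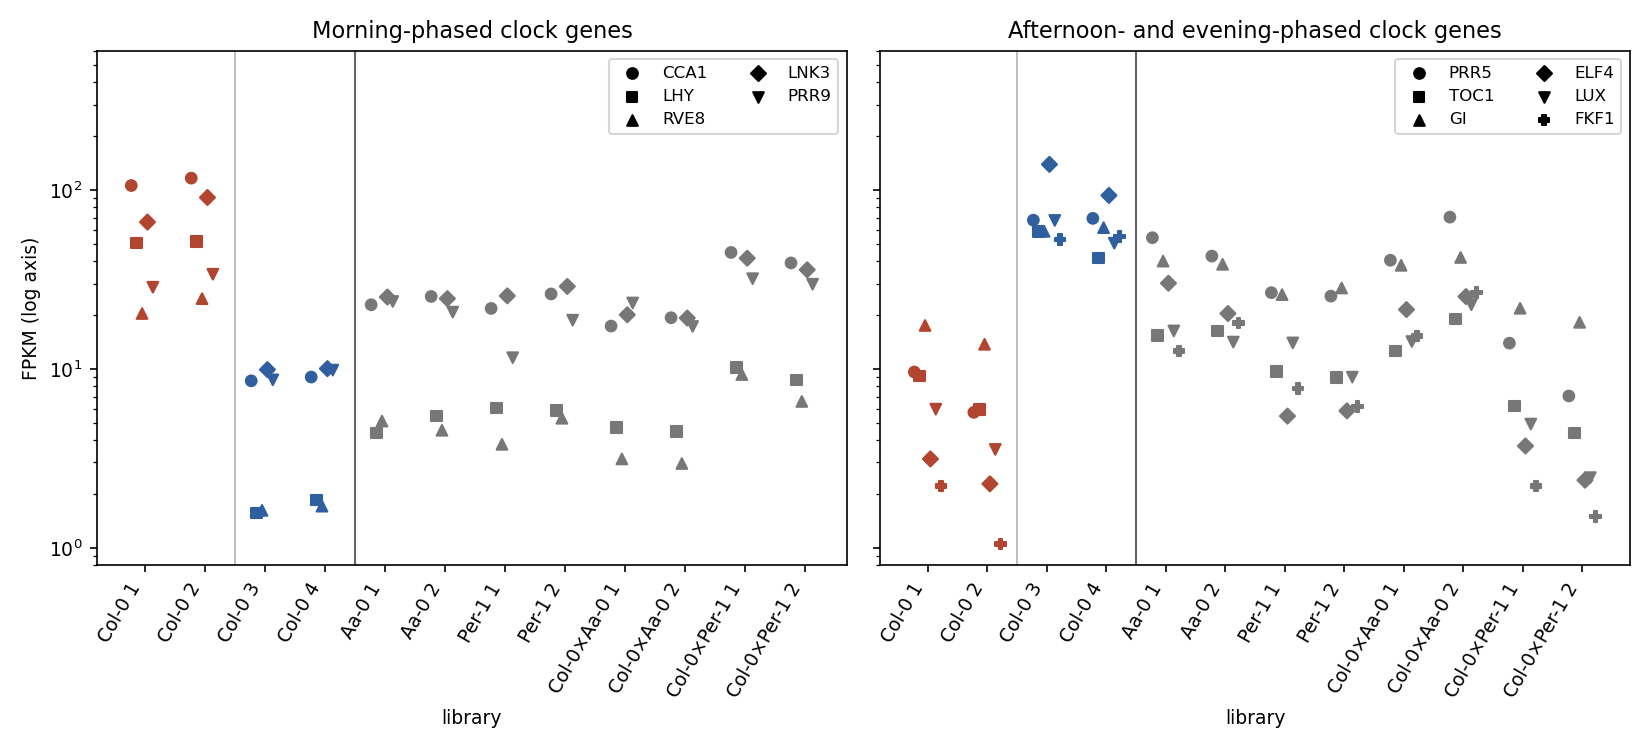
FPKM (log axis) of 5 morning clock genes (left) and 6 afternoon and evening clock genes (right) in each of the 12 libraries, 1 point per gene and library, with Col-0 libraries 1 and 2 in red, 3 and 4 in blue and the other genotypes in grey. CCA1 and LHY stand at 106 to 116 and 50.6 to 51.5 FPKM in libraries 1 and 2, against 8.58 to 9.01 and 1.57 to 1.85 FPKM in libraries 3 and 4, while ELF4 and FKF1 are under 4 FPKM in libraries 1 and 2.

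Afternoon and evening clock genes were lower in libraries 1 and 2. Of 16 tested, 11 passed the test downwards and 0 upwards, with a median difference of -1.83, and the same 11 passed when each library was left out in turn. ELF4-L1 did not reach the level needed for testing. When genes that overlap another annotated gene were left out of the fit, 5 morning genes were called higher and 7 evening genes lower. The called clock genes missing from these counts were the overlapping ones, which that fit did not test.

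ELF4, ELF3 and LUX form the evening complex, which represses PRR9 and PIF genes at night. ELF4 had 3.14 and 2.28 FPKM in libraries 1 and 2, against 139 and 93.3 FPKM in libraries 3 and 4 (-4.96 ± 0.25, adjusted p 8.54e-06). LUX, its DNA-binding subunit, had 5.96 and 3.55 FPKM in libraries 1 and 2, against 67.6 and 50.5 FPKM in libraries 3 and 4 (-3.40 ± 0.33, adjusted p 0.000174). ELF3, the scaffold, had 5.49 and 5.64 FPKM in libraries 1 and 2, against 22.2 and 20.7 FPKM in libraries 3 and 4 (-1.77 ± 0.14, adjusted p 5.05e-05). BOA, a relative of LUX, stayed under 3 FPKM in all 4 libraries, with a difference of -1.41 ± 0.19. Among the ELF4 relatives, ELF4-L4 was lower (-1.02 ± 0.16), and ELF4-L2 and ELF4-L3 did not pass.

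GI and FKF1 act together to remove repressors of flowering in the afternoon. GI had 17.5 and 13.7 FPKM in libraries 1 and 2, against 58.7 and 61.6 FPKM in libraries 3 and 4 (-1.89 ± 0.14, adjusted p 3.18e-05). FKF1, a blue-light-sensing F-box protein, had 2.22 and 1.05 FPKM in libraries 1 and 2, against 52.9 and 55.0 FPKM in libraries 3 and 4 (-4.42 ± 0.29, adjusted p 2.1e-05). Its relatives ZTL and LKP2, whose transcripts are known to vary little through the day, differed by 0.12 ± 0.10 and 0.10 ± 0.13 (adjusted p 0.496 and 0.655). The histone demethylase gene JMJ30 was lower (-2.17 ± 0.21, adjusted p 0.000164). CHE, a repressor of CCA1, did not pass (-0.45 ± 0.22, adjusted p 0.213).

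Clock outputs were called in both directions, where 7.22% of all tested genes were called higher and 8.33% lower. Of 14 tested, 9 were called higher and 4 lower, and 10 of the 13 calls were kept in each of the 4 omissions of a library. COL2, a relative of the flowering regulator CONSTANS, had 88.0 and 119 FPKM in libraries 1 and 2, against 4.19 and 4.95 FPKM in libraries 3 and 4 (4.22 ± 0.27, adjusted p 1.75e-05). CDF1, CDF2 and CDF3 encode repressors of CONSTANS that FKF1 marks for degradation, and they were higher by 1.71 ± 0.30, 1.96 ± 0.17 and 1.11 ± 0.25. The CDF1 call ended without library 2 (adjusted p 0.0516), and the CDF3 call ended without library 2 (0.126) or library 3 (0.113). The list member AT1G69570 did not pass (0.08 ± 0.17, adjusted p 0.806). BBX24 was called higher (0.71 ± 0.17, adjusted p 0.0241), but not in any of the 4 omissions (0.0753 to 0.149).

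GRP7 and GRP8 encode RNA-binding proteins of an evening loop driven by the clock. GRP7 had 65.7 and 55.8 FPKM in libraries 1 and 2, against 1972 and 1782 FPKM in libraries 3 and 4 (-4.93 ± 0.21, adjusted p 2.17e-06), and 93.3 to 730 FPKM in the other 8 libraries. GRP8 differed by -2.46 ± 0.18 (adjusted p 4.03e-05). COR27, a cold- and light-regulated repressor in the clock, had 0.31 and 0.24 FPKM in libraries 1 and 2, against 46.7 and 32.5 FPKM in libraries 3 and 4 (-4.97 ± 0.32, adjusted p 1.88e-05). AT4G33980, the other called member, had 0.28 and 0.34 FPKM in libraries 1 and 2, against 37.3 and 22.8 FPKM in libraries 3 and 4 (-4.53 ± 0.53, adjusted p 0.000449). GRP7 and COR27 were outside the range of the other 8 libraries in libraries 3 and 4, and GRP7 also in libraries 1 and 2.

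Light-signalling genes moved in both directions. Of 26 tested, 11 were called higher and 4 lower, against 7.22% and 8.33% of all tested genes, and the median was 0.25. ELIP2, a chlorophyll-binding stress protein gene, had 42.8 and 45.4 FPKM in libraries 1 and 2, against 2.17 and 1.59 FPKM in libraries 3 and 4 (3.98 ± 0.54, adjusted p 0.00108), and ELIP1 differed by 2.67 ± 0.37 (adjusted p 0.0012). RUP2, which switches the ultraviolet-B receptor off, had 11.3 and 14.9 FPKM in libraries 1 and 2, against 2.07 and 1.93 FPKM in libraries 3 and 4 (2.22 ± 0.14, adjusted p 1.75e-05), while its relative RUP1 did not pass (1.48 ± 0.46, adjusted p 0.0601). SIG5, which directs transcription of plastid photosystem genes, had 76.3 and 84.4 FPKM in libraries 1 and 2, against 18.8 and 19.3 FPKM in libraries 3 and 4 (2.02 ± 0.17, adjusted p 6.21e-05).

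HYH, a relative of the light-response factor HY5, was higher by 2.03 ± 0.24 (adjusted p 0.000433). HY5 itself had 6.25 and 7.27 FPKM in libraries 1 and 2, against 3.06 and 2.80 FPKM in libraries 3 and 4 (0.98 ± 0.19, adjusted p 0.0075), a call that ended without library 2 (0.0717) or library 4 (0.0502). SPA4, a partner of the COP1 repressor of light responses, was higher by 1.04 ± 0.12 (adjusted p 0.000395). The photoreceptor genes split: CRY1 and PHOT2 were higher by 0.55 ± 0.12 and 0.46 ± 0.11, while CRY2 (-0.65 ± 0.12) and UVR8 (-0.67 ± 0.12) were lower. The PHOT2 call ended in all 4 omissions (adjusted p 0.0604 to 0.152), and the CRY1 call held only without library 2. BBX22, a B-box factor, had 25.9 and 26.9 FPKM in libraries 1 and 2, against 58.2 and 58.1 FPKM in libraries 3 and 4 (-1.11 ± 0.11, adjusted p 0.000207). PHYA and PHYB, the main phytochrome genes, did not pass (0.23 ± 0.10 and 0.07 ± 0.13).

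The PIF genes encode growth-promoting factors that phytochrome removes in light. PIF5 had 182 and 173 FPKM in libraries 1 and 2, against 89.7 and 62.2 FPKM in libraries 3 and 4 (1.24 ± 0.21, adjusted p 0.00376). PIF3 rose by 0.83 ± 0.13 (adjusted p 0.00222) and PIF7 by 0.78 ± 0.14 (adjusted p 0.00574, and 0.0607 without library 2), while PIF4 did not pass (0.26 ± 0.18). Over PIF genes and their shade and auxin targets, 4 of 17 were called higher and 1 lower, with a median of 0.40, and 2 were called higher without library 2. The 1 lower member, PAR1, an inhibitor of the PIF pathway, differed by -0.90 ± 0.21 (adjusted p 0.0181), and its call ended without library 2 (0.145) or library 3 (0.115).

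Chlorophyll synthesis genes were called mostly upwards. Of 16 tested, 6 were higher and 2 lower, against 7.22% and 8.33% of all tested genes, with a median of 0.12. Without genes that overlap another gene, 2 were called higher and 0 lower, with a median of -0.12. GUN4, the activator of magnesium chelatase, had 452 and 547 FPKM in libraries 1 and 2, against 148 and 146 FPKM in libraries 3 and 4 (1.75 ± 0.12, adjusted p 2.5e-05). CAO, which makes chlorophyll b, differed by 1.46 ± 0.11 (adjusted p 4.12e-05), and HEMA1, the first committed enzyme, by 1.4 ± 0.17 (adjusted p 0.000497). PORB, a light-dependent reductase of the pathway, went the other way, at 284 and 202 FPKM in libraries 1 and 2 and 527 and 741 FPKM in libraries 3 and 4 (-1.38 ± 0.19, adjusted p 0.00126). The calls of CHLM and PORA were lost in 4 and 3 of the 4 omissions.

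Of nuclear photosynthesis genes other than RBCS1A, 8 of 44 were called higher and 0 lower, against 7.22% and 8.33% of all tested genes. The share called in either direction was near the 15.5% of all tested genes, and the median of the list was 0.04. The number called higher was 4 without library 1, 3 without library 2 or library 3 and 6 without library 4. RCA, which encodes the activase of Rubisco, had 8041 and 7671 FPKM in libraries 1 and 2, against 3682 and 4029 FPKM in libraries 3 and 4 (1.03 ± 0.11, adjusted p 0.00031). LHCB2.3, an antenna protein gene, had 2123 and 2265 FPKM in libraries 1 and 2, against 690 and 948 FPKM in libraries 3 and 4 (1.44 ± 0.26, adjusted p 0.00534), and LHCB7 differed by 0.72 ± 0.12. RCA, LHCB2.3 and LHCB7 kept their calls in each of the 4 omissions, and LHCB1.1, LHCB2.2, LHCA6, PSBS and RBCS2B did not. Members of the LHCB1, LHCB2 and RBCS families are close copies, so counting could split their reads. Within the second pair, 3 of the 44 genes were higher in library 3 than in library 4, with a median of -0.16, and library 3 was also the one with the lowest plastid share.

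Flavonoid genes were higher in libraries 1 and 2 in 10 of 12 tested, with 0 lower and a median of 0.85. The number called was 7 without library 2 and 6 without each of the other 3. CHS, the first enzyme of the branch, had 19.7 and 20.6 FPKM in libraries 1 and 2, against 3.05 and 2.33 FPKM in libraries 3 and 4 (2.53 ± 0.31, adjusted p 0.000649). F3H, a later hydroxylase, differed by 1.63 ± 0.13 (adjusted p 5.41e-05). PAL1 and PAL2, which start phenylpropanoid synthesis, were higher by 1.04 ± 0.10 and 1.22 ± 0.12 (adjusted p 0.000164 and 0.000146). The glucosyltransferase gene UGT78D2 differed by 1.21 ± 0.14. The calls of C4H, 4CL3, CHI and FLS1 were lost in 3 or 4 of the 4 omissions. The anthocyanin genes DFR, LDOX, PAP1 and PAP2 were each under 1 FPKM in all 4 libraries and were not tested.

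**Figure D2:**
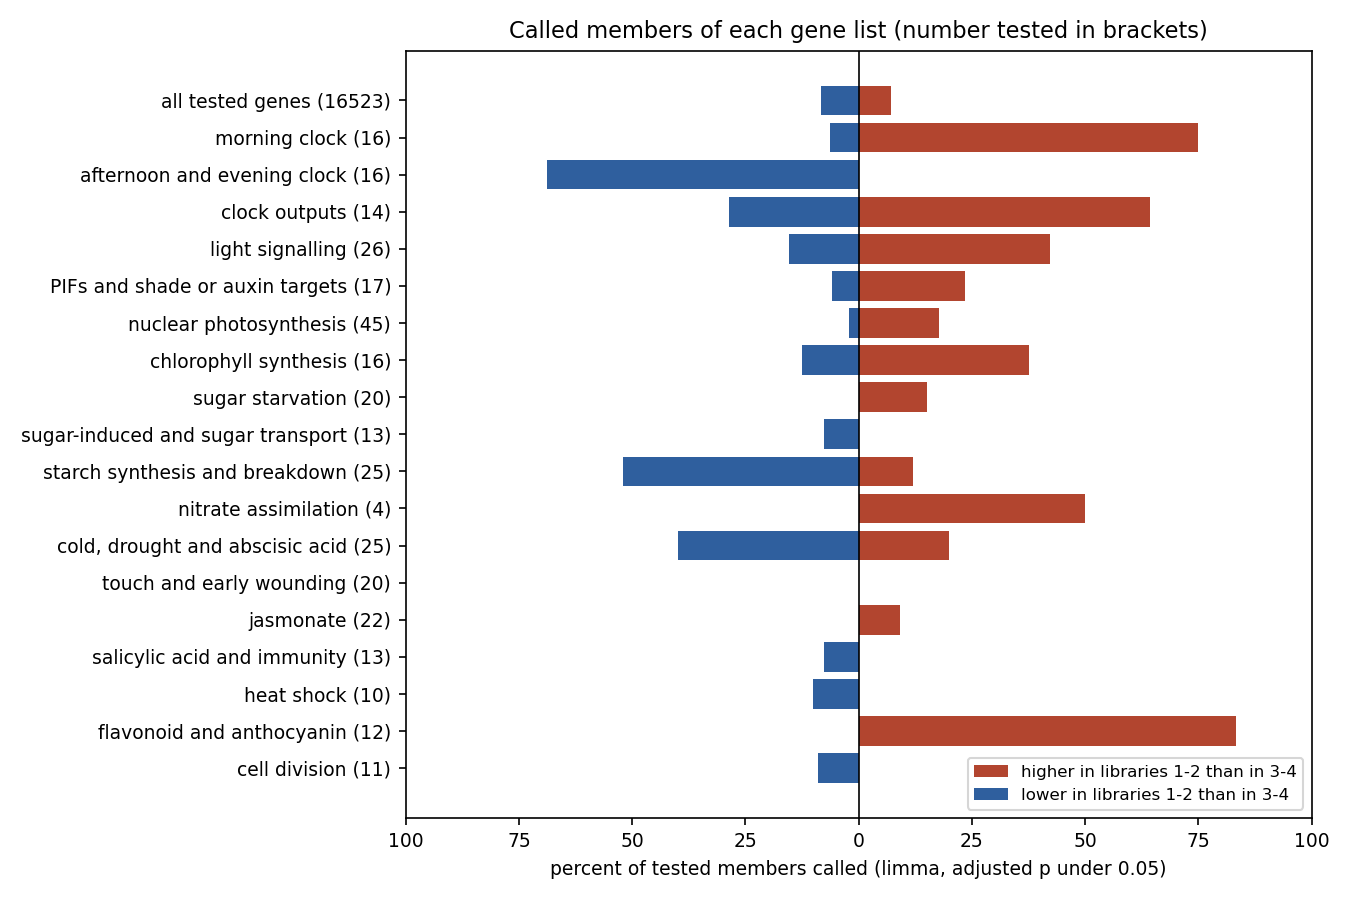
Percent of the tested members of each gene list called higher (red, to the right) or lower (blue, to the left) in Col-0 libraries 1 and 2 than in 3 and 4, with all tested genes on top. Morning clock (12 of 16 higher), evening clock (11 of 16 lower), flavonoid (10 of 12 higher) and starch (13 of 25 lower) bars exceed the 7.22% and 8.33% of all genes, and touch genes have 0 calls. The nuclear photosynthesis bar includes RBCS1A, which is the 1 lower call among its 45 tested genes.

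Starch genes were called in both directions, mostly downwards. Of 25 tested, 13 were called lower in libraries 1 and 2 and 3 higher, with a median of -0.64. GWD1 and PWD encode the dikinases that phosphorylate the granule surface. GWD1 had 77.5 and 63.5 FPKM in libraries 1 and 2, against 256 and 248 FPKM in libraries 3 and 4 (-1.83 ± 0.14, adjusted p 4.68e-05). PWD had 21.7 and 17.6 FPKM in libraries 1 and 2, against 104 and 97.7 FPKM in libraries 3 and 4 (-2.31 ± 0.16, adjusted p 2.96e-05).

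Downstream, the phosphatase gene SEX4 differed by -1.65 ± 0.12, the debranching enzyme gene ISA3 by -2.14 ± 0.15 and the cytosolic phosphorylase gene PHS2 by -2.17 ± 0.18 (adjusted p 3.18e-05, 2.5e-05 and 6.72e-05). The glucanotransferase genes DPE1 and DPE2 differed by -1.63 ± 0.13 and -1.13 ± 0.13, and the amylase gene AMY3 by -1.25 ± 0.12. Genes of synthesis were among the lower ones, the branching enzyme SBE2.1 at -1.63 ± 0.12 and the starch synthase SS4 at -1.23 ± 0.14. MEX1, the maltose exporter gene, differed by -0.64 ± 0.13 (adjusted p 0.00988), and its call ended without library 2 (0.0808) or library 4 (0.0805).

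Genes of synthesis and of breakdown were also among the 3 called higher. GBSS1, the granule-bound synthase that makes amylose, had 94.7 and 98.5 FPKM in libraries 1 and 2, against 7.18 and 7.92 FPKM in libraries 3 and 4 (3.51 ± 0.11, adjusted p 3.86e-07), and 13.1 to 28.0 FPKM in the other 8 libraries. SS2 was higher by 0.85 ± 0.14. BAM1 was higher by 1.08 ± 0.21, and its call ended without library 2 (adjusted p 0.0615) or library 4 (0.0558). APL1 and APS1, subunits of the enzyme that starts starch synthesis, did not pass (0.14 ± 0.13 and -0.06 ± 0.10).

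Of 20 tested genes that rise on sugar starvation, 3 were called higher and 0 lower, against 7.22% and 8.33% of all tested genes. The share called in either direction was near the 15.5% of all tested genes. The median of this list, 0.31, rested on single libraries, at 0.09 without library 1, 0.57 without library 2, 0.95 without library 3 and -0.06 without library 4. BAM9, a member of the beta-amylase family, had 34.2 and 36.1 FPKM in libraries 1 and 2, against 4.50 and 3.36 FPKM in libraries 3 and 4 (2.88 ± 0.29, adjusted p 0.000189). DIN9 differed by 1.09 ± 0.18. DIN6, an asparagine synthetase gene that is a common marker of low sugar, had 75.2 and 63.8 FPKM in libraries 1 and 2, against 20.3 and 12.6 FPKM in libraries 3 and 4 (2.05 ± 0.44, adjusted p 0.0127), and its call held only without library 3. DIN1 and DIN10 did not pass (1.00 ± 0.54 and 0.13 ± 0.71). In this list 18 of 20 genes were higher in library 3 than in library 4, with a median of 0.63. Other duplicates split on it too. Their medians, first minus second library, were 0.83 for Col-0×Per-1, 0.54 for Per-1, 0.4 for Aa-0 and -1.09 for Col-0×Aa-0.

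Of 13 sugar-induced and sugar-transport genes, 1 was called. STP13, a monosaccharide importer gene, had 18.9 and 10.3 FPKM in libraries 1 and 2, against 69.3 and 55.6 FPKM in libraries 3 and 4 (-2.07 ± 0.35, adjusted p 0.00393). Among 4 nitrate assimilation genes, the transporter gene NRT1.1 was higher (0.91 ± 0.16, adjusted p 0.00535). The nitrate reductase gene NIA2 was also called (1.02 ± 0.28, adjusted p 0.0397), but its adjusted p was 0.177 without library 1, 0.123 without library 2 and 0.221 without library 4.

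Of 25 genes of cold, drought and abscisic acid response, 10 were called lower and 5 higher, against 8.33% and 7.22% of all tested genes. The median was -0.88, but -1.34 without library 1, -0.35 without library 2, -0.06 without library 3 and -1.51 without library 4. The number called higher was 3 without library 1 or library 4. COR15A and COR15B encode proteins that protect chloroplast membranes in the cold. COR15B had 31.7 and 24.5 FPKM in libraries 1 and 2, against 484 and 499 FPKM in libraries 3 and 4 (-4.09 ± 0.25, adjusted p 1.61e-05). COR15A had 54.6 and 43.1 FPKM in libraries 1 and 2, against 265 and 309 FPKM in libraries 3 and 4 (-2.54 ± 0.30, adjusted p 0.000448). KIN2, another cold-induced gene, had 83.8 and 45.2 FPKM in libraries 1 and 2, against 582 and 651 FPKM in libraries 3 and 4 (-3.30 ± 0.35, adjusted p 0.000272).

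RD29A, which responds to cold and to drought, differed by -3.15 ± 0.35 and the membrane protein gene COR413-PM1 by -1.66 ± 0.18 (adjusted p 0.000374 and 0.000301). CBF3, an activator of these genes, had 3.49 and 2.17 FPKM in libraries 1 and 2, against 12.2 and 10.7 FPKM in libraries 3 and 4 (-1.72 ± 0.28, adjusted p 0.00297). COR15A with COR15B and KIN1 with KIN2 are similar neighbours whose reads counting could split. Of the 10 called lower, COR47 lost its call without library 2 (adjusted p 0.119) or library 3 (0.0742), and KIN1 without library 2 (0.0571).

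The 5 members called higher were GOLS1, P5CS1, RD20, ABI2 and HAI1. P5CS1, the main enzyme of proline synthesis, had 586 and 560 FPKM in libraries 1 and 2, against 225 and 232 FPKM in libraries 3 and 4 (1.32 ± 0.11, adjusted p 5.41e-05). RD20 had 63.3 and 62.0 FPKM in libraries 1 and 2, against 16.0 and 16.4 FPKM in libraries 3 and 4 (1.89 ± 0.31, adjusted p 0.00302). GOLS1, an enzyme of raffinose synthesis, was higher by 1.63 ± 0.18. The phosphatase genes ABI2 and HAI1, which dampen abscisic acid signalling, differed by 0.52 ± 0.13 and 1.53 ± 0.30. The ABI2 call ended in all 4 omissions (adjusted p 0.0504 to 0.184), and the HAI1 call ended without library 1 (0.0658) or library 4 (0.0663).

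**Figure D3:**
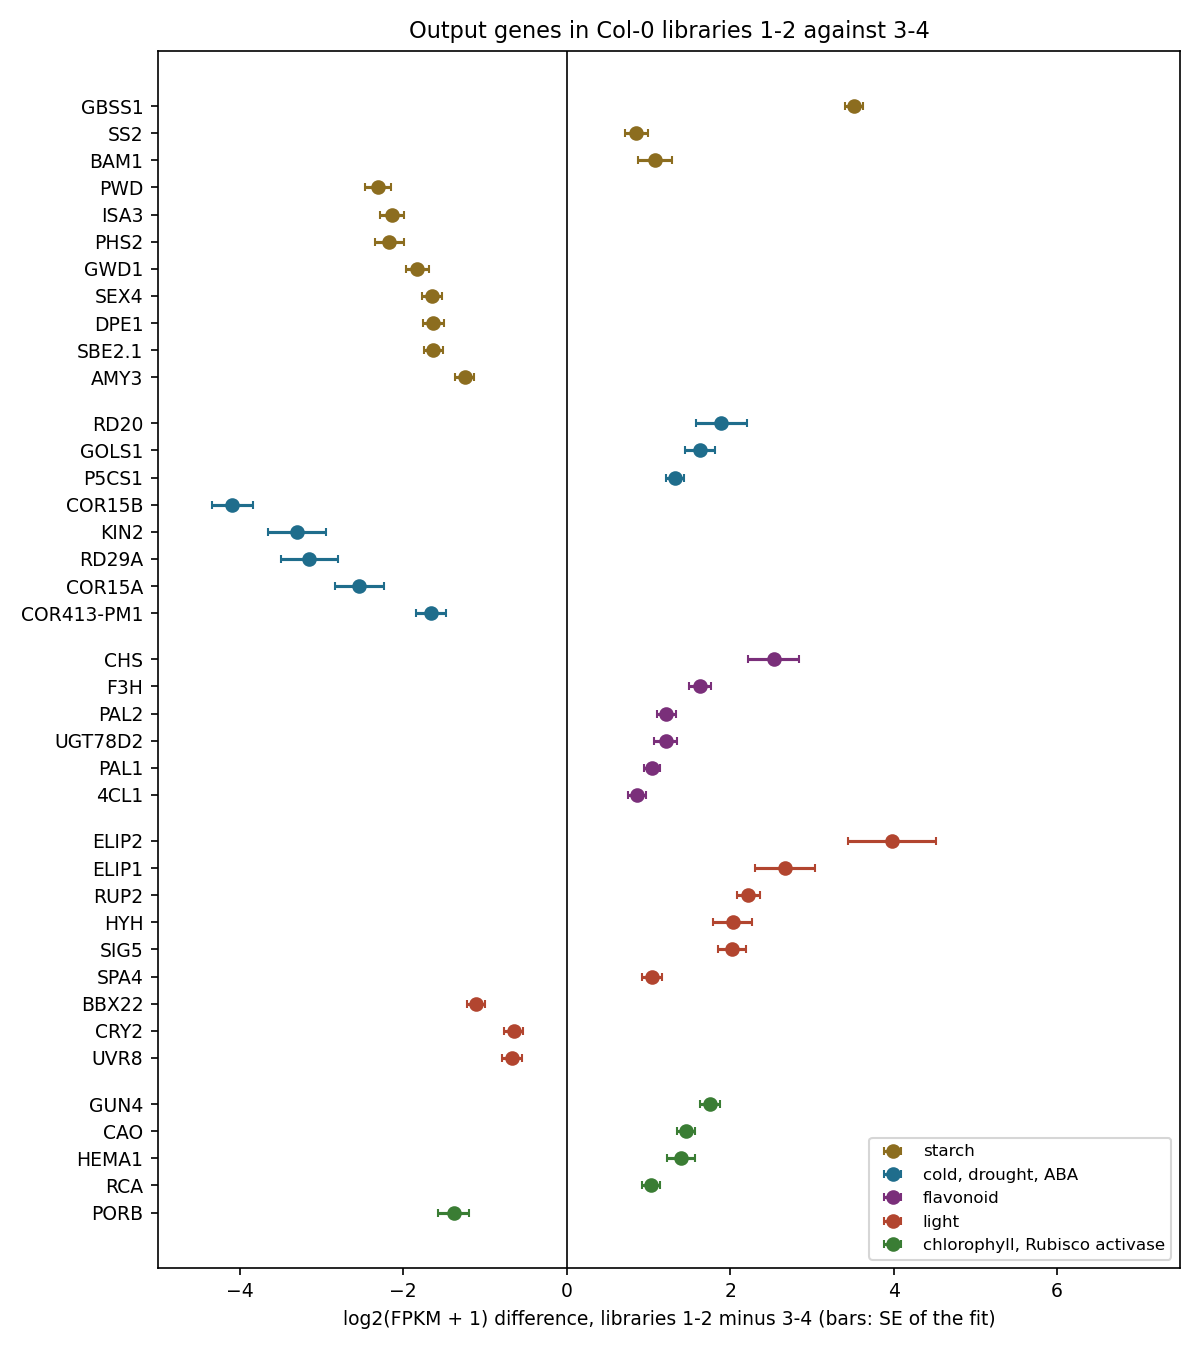
Differences of log2(FPKM + 1), Col-0 libraries 1 and 2 minus 3 and 4 (horizontal axis), for called genes of 5 groups, with bars for the SE of the fit. GBSS1 lies at 3.51 while the starch genes called lower that are plotted lie between -2.31 and -1.25, and COR15B is at -4.09.

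Touch and early-wounding genes were not called between the pairs, which cannot show that the pairs had equal levels. The fit takes the spread of a gene from all duplicates, and these differed widely for touch genes, so the SE were large. These genes respond within minutes to handling, and 0 of 20 were called in either direction, with a median difference of -0.06 (-0.17 without library 1, 0.22 without library 2, 0.92 without library 3 and -1.26 without library 4). They separated libraries inside a pair: all 20 were higher in library 3 than in library 4, by 1.17 to 2.87 with a median of 2.09, and 18 of 20 were higher in library 1 than in library 2, with a median of 0.46. Over all tested genes these within-pair medians were 0.02 and -0.02. Duplicates of other genotypes also split on the touch genes. The median of the first minus the second library was 1.99 for Col-0×Per-1, 0.96 for Aa-0, 0.43 for Per-1 and -2.05 for Col-0×Aa-0. TCH4, a cell-wall enzyme gene induced by touch, had 106 and 86.7 FPKM in libraries 1 and 2, against 172 and 35.1 FPKM in libraries 3 and 4 (0.29 ± 0.88, adjusted p 0.867). The defence regulator WRKY40 had 94.0 and 50.1 FPKM in libraries 1 and 2, against 176 and 31.4 FPKM in libraries 3 and 4. In both genes the highest and the lowest of the 4 values lay in the same pair. For morning and evening clock genes the medians were -0.15 and 0.31 for library 1 minus library 2 and -0.06 and 0.11 for library 3 minus library 4. The median absolute difference of evening genes was 0.31 between libraries 1 and 2, against 0.14 over all tested genes.

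**Figure D4:**
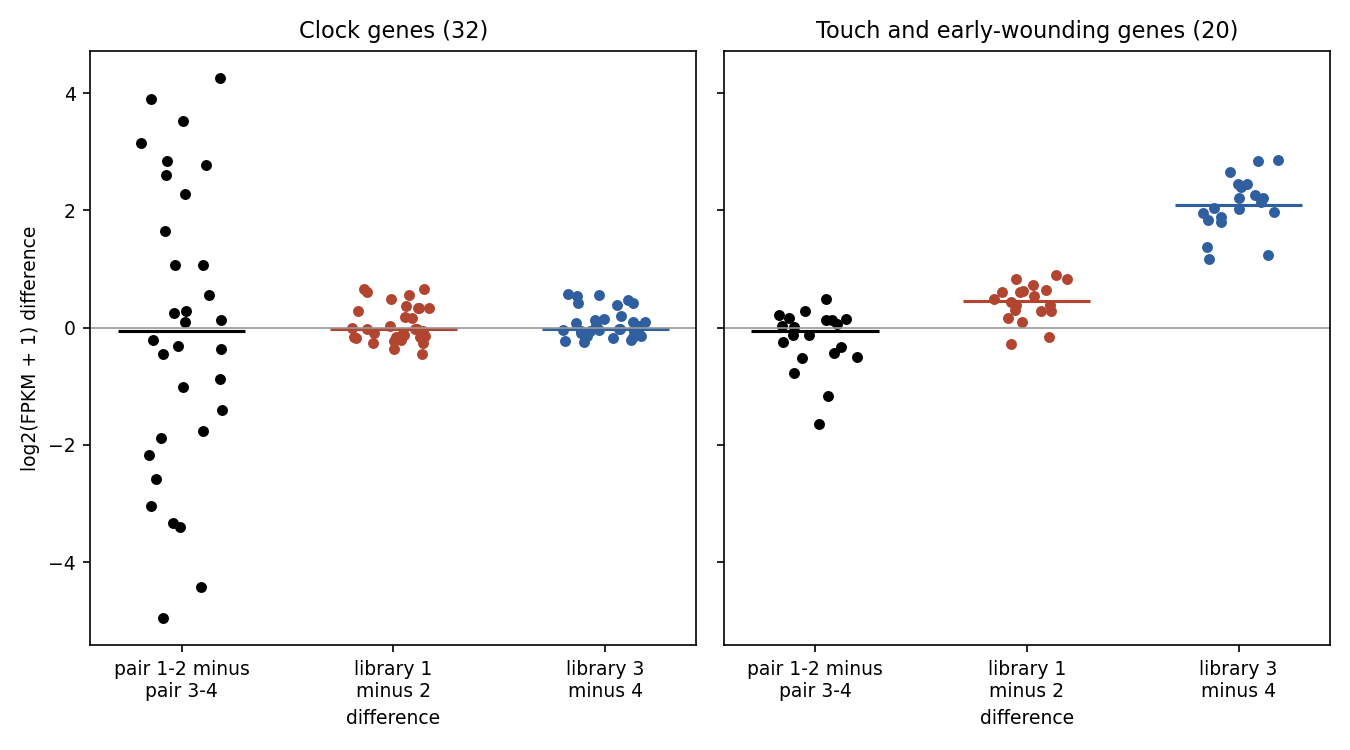
Differences of log2(FPKM + 1) for 32 tested clock genes (left) and 20 touch and early-wounding genes (right), as pair 1-2 minus pair 3-4, library 1 minus library 2 and library 3 minus library 4, 1 point per gene and the median as a line. Clock genes spread from -4.96 to 4.26 between the pairs, whereas touch genes are displaced within the second pair, by 1.17 to 2.87.

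Other stress lists gave 2 of 22, 1 of 13 and 1 of 10 genes called, against 15.5% of all tested genes. Among 22 jasmonate genes, JAZ3 and JAZ6, repressors of the pathway, were called higher by 0.90 ± 0.24 and 1.23 ± 0.27 (adjusted p 0.0314 and 0.0147). JAZ3 lost its call in all 4 omissions (0.0621 to 0.169) and JAZ6 in 3 of them. Among 13 salicylic acid and immunity genes, WRKY54 was lower, at 0.35 and 0.45 FPKM in libraries 1 and 2 and 5.92 and 2.91 FPKM in libraries 3 and 4 (-1.89 ± 0.31, adjusted p 0.00346). Among 10 heat-shock genes, DREB2A was lower, at 10.8 and 8.48 FPKM in libraries 1 and 2 and 72.6 and 25.9 FPKM in libraries 3 and 4 (-2.07 ± 0.52, adjusted p 0.0265). Its call held only without library 4, and all 10 heat-shock genes were higher in library 3 than in library 4, with a median of 0.95. In the other duplicates this median, first minus second library, was 0.6 for Aa-0, 0.42 for Col-0×Per-1, 0.1 for Per-1 and -0.77 for Col-0×Aa-0.

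Lists of cell division and cell types gave at most 1 call each, where 15.5% of all tested genes were called. Of 11 division genes tested, 1 was called, MCM2, a subunit of the replication helicase, at -0.46 ± 0.12 (adjusted p 0.0299, and 0.107 to 0.146 in the 4 omissions). The 4 guard cell markers summed to 264 and 285 FPKM in libraries 1 and 2, against 351 and 346 FPKM in libraries 3 and 4, and the 9 vasculature markers to 442 and 396 FPKM, against 351 and 367 FPKM. FMA, a guard cell regulator, was called lower (-0.61 ± 0.18, adjusted p 0.0474) and APL, a phloem regulator, higher (0.38 ± 0.10, adjusted p 0.0322). APL lost its call in all 4 omissions and FMA kept it only without library 2 (0.0242). In whole leaves, fewer cells of a type and less RNA per cell cannot be told apart. The part of these marker sums in the other results was not tested.

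Several of the largest differences lay outside the lists. AT1G07050, annotated as a CCT motif family protein, had the largest fall, with 0.68 and 0.41 FPKM in libraries 1 and 2, against 68.6 and 63.7 FPKM in libraries 3 and 4 (-5.45 ± 0.29, adjusted p 1.04e-05). GER3, a germin-like protein gene, had 5.96 and 9.10 FPKM in libraries 1 and 2, against 344 and 347 FPKM in libraries 3 and 4 (-5.37 ± 0.17, adjusted p 3.85e-07). In the other 8 libraries GER3 ran from 3.83 to 13.7 FPKM, so the high values stood in libraries 3 and 4 and in no other library. AT5G23240, with a DNAJ domain, and AT4G30650, from a family that responds to low temperature and salt, differed by -4.93 ± 0.33 and -4.04 ± 0.33.

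Rises outside the lists were led by AT2G27420, annotated as a cysteine proteinase, with 21.2 and 28.4 FPKM in libraries 1 and 2, against 1.14 and 1.49 FPKM in libraries 3 and 4 (3.47 ± 0.22, adjusted p 1.73e-05). AT3G28270, annotated as a transmembrane protein, differed by 3.41 ± 0.15 (adjusted p 3.08e-06). AT1G55960, with a polyketide cyclase domain, had 220 and 252 FPKM in libraries 1 and 2, against 24.4 and 25.4 FPKM in libraries 3 and 4 (3.19 ± 0.12, adjusted p 1.22e-06).

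The other 8 libraries mostly lay between the Col-0 pairs for the clock genes and for called genes at large. Each called gene was given a position in each library, with 1 for the mean of libraries 1 and 2 and 0 for that of libraries 3 and 4. The genes were chosen for a gap between the pairs, which by itself favours positions between 0 and 1. Over the 13 called morning genes the median position was 0.66 and 0.58 for Col-0×Per-1, 0.27 and 0.40 for Per-1, 0.35 and 0.30 for Col-0×Aa-0, and 0.44 and 0.41 for Aa-0. Over the 11 called evening genes it was 0.97 and 1.01 for Col-0×Per-1, 0.60 and 0.75 for Per-1, 0.47 and 0.39 for Col-0×Aa-0, and 0.39 and 0.39 for Aa-0. Col-0×Per-1 lay near libraries 1 and 2 for evening genes and farther from them for morning genes. Over all 822 genes other than RBCS1A called with an absolute difference of at least 1, the medians of the 8 libraries were 0.30 to 0.72, with Col-0×Per-1 highest at 0.69 and 0.72. For 9 of the 13 morning genes and 3 of the 11 evening genes all 8 libraries lay between the pairs. The values of libraries 3 and 4 were above all 8 other libraries for 10 of the 11 called evening genes, and below them for 10 of the 13 called morning genes. Libraries 1 and 2 were above all 8 for 11 of the 13 called morning genes and below them for 3 of the 11 called evening genes.

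Other outputs took other positions. The 10 called flavonoid genes had medians of -0.09 to 0.28 in the 8 libraries, near libraries 3 and 4. The 10 cold, drought and abscisic acid genes called lower had medians of 0.39 to 0.95, and 7 of the 8 medians were nearer to libraries 1 and 2. The 16 called starch genes lay at 0.29 to 0.80. These positions are descriptions, since the genes were chosen for the gap between the pairs, genotype differs too and the labels name no time of harvest.

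**Figure D5:**
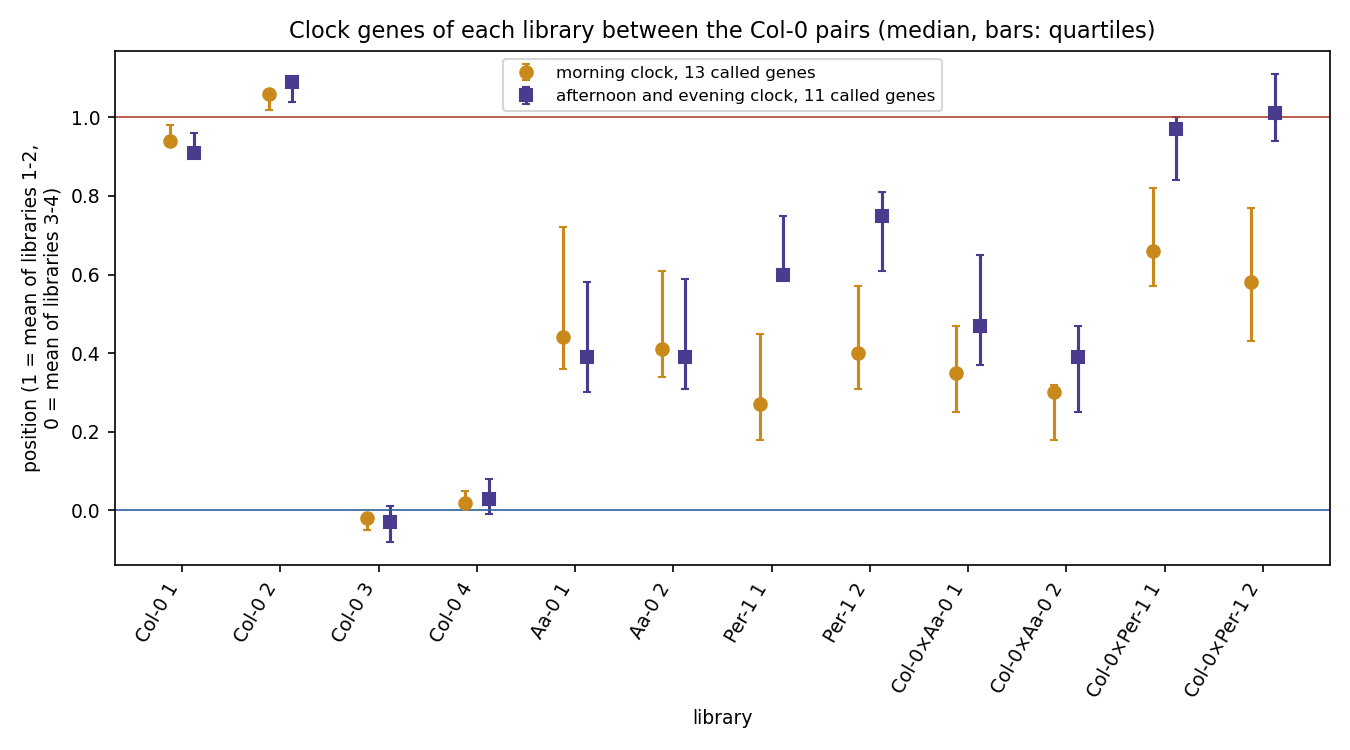
Median position of the 13 called morning (circles) and 11 called afternoon and evening (squares) clock genes in each of the 12 libraries, on a scale with 1 at the mean of Col-0 libraries 1 and 2 and 0 at the mean of 3 and 4, with bars for the quartiles. The 8 other libraries lie at 0.27 to 0.66 for morning genes and at 0.39 to 1.01 for evening genes.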

How the data were processed

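The authors deposited FPKM per gene with 2 decimals. The submitters' processing notes name Cufflinks 2.0.2, edgeR 3.12.0, TopHat2 2.0.8b, TopHat and TAIR10, and the step that gave the FPKM is not given in the sources used here. Libraries were grouped by genotype, and Col-0 by replicate number. The members and gene lists were chosen with earlier results of these data known.

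Genes needed 1 FPKM or more in 2 or more Col-0 libraries, which 16523 had. Their log2(FPKM + 1) was fitted in limma 3.58.1 (R 4.3.3) with a group-means model of all 12 libraries in 6 groups, which left 6 residual degrees of freedom. The eBayes step used a trend, and p-values were Benjamini-Hochberg adjusted over all tested genes. SE are those of the fit. A pseudocount of 1 shrinks differences of low genes. On simulated data 71% of genes changed by log2 1 and 93% of those changed by log2 2 were recovered, with 8 false calls among 16523 genes. The changed genes were drawn only from those above a set level, and the noise was independent between genes. These rates therefore need not hold for low genes or where many genes shift together in a library.

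Gene names, overlaps and promoters came from TAIR10.1, in which 31416 identifiers were found and 2717 were not. Promoter windows were 300 bases before the annotated gene start. The list members were 392 genes in 23 lists. Named genes were the 10 that rose most and the 10 that fell most among called genes averaging at least 5 FPKM over the 4 Col-0 libraries, above 0 in each and with no overlap between the values of the pairs, all tested clock genes, and up to 4 called members of each other list with the smallest adjusted p. Genes listed at 0 in 1 pair only were added. Other list members named, the promoters shown and the touch genes were chosen after their values were seen.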

Additional observations from a re-analysis of the deposited data

How the results depend on the processing

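No paired analysis was possible because the pairs hold replicates 1 and 2 against 3 and 4 and share no number. Leaving out 1 Col-0 library at a time, with the spread of the lone library taken from the other groups, gave 1096 to 1527 calls (540 to 786 higher, 556 to 741 lower in libraries 1 and 2). Without overlapping genes 10930 genes were tested and 1704 were called (888 lower), 1701 of them among the calls reported above. They held 5 morning clock genes called higher and 7 evening clock genes called lower. The other clock genes called as reported overlap another gene and were not tested in that fit, so their absence is not a lost call. With an absolute difference of at least 1 there were 823 calls, 435 higher and 388 lower. Other settings were a pseudocount of 0.1, no filter, a filter at 5 FPKM, median-ratio or quantile scaling, no trend and the 4 Col-0 libraries alone. Omission of RBCS1A or of the second Col-0×Per-1 library was chosen after seeing the data. All of these kept the totals, the morning genes called higher and the evening genes called lower within 1.5 times those reported. Morning genes called lower, 1 as reported, were 0 with a pseudocount of 0.1 or a filter at 5 FPKM and 2 without a filter. The higher share of calls was 45.9% to 54.5% over all settings, and no difference of a gene chosen by the naming rule changed sign. FMA, NIA2, MCM2, DREB2A, APL, JAZ3 and RVE2 each lost their call under at least 1 of these settings, at adjusted p 0.0511 to 0.107. Without a filter PRR7 passed (adjusted p 0.0441). Depth is unknown and limits genes near 1 FPKM.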
